A study of Mus musculus with 5 samples.

Results

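This account covers 59 protein-coding genes for splicing factors and other RNA-binding proteins in the aged mouse brain. They were chosen by symbol alone: the Rbfox, Nova, Celf, Elavl, Mbnl, Ptbp and Khdrbs families, all Hnrnp and Srsf genes, Qk, and Fmr1 with its relatives Fxr1 and Fxr2. The deposited count table holds 47729 genes. The samples are brains of 5 male mice of the inbred strain C57BL/6 at an age of 30 months, with no younger, female or treated group analysed here. They are named by the numbers in their labels, mouse 7 to mouse 11. Because all samples belong to 1 group, the data answer how strongly each gene was expressed, how members of a family ranked within a brain, and how far the brains differed. Separate animals are named by the series title alone, while the sample labels only carry numbers. Every SD and p-value therefore refers to these samples, and part of their differences may be technical. The p-values for pairs of genes within a family concern the direction of a ratio within each sample. The other p-values concern how far the samples differ. No transgene, deletion or agent is named for any sample.

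Splicing factors bind short elements in pre-mRNA and decide which exons are kept. Rbfox, Nova, Elavl, Ptbp and Celf proteins have family members made mainly by neurons beside members made by many cell types, and a change from Ptbp1 to Ptbp2 accompanies the differentiation of neurons. The hnRNP and SR proteins act in all cells, hnRNP proteins often repressing and SR proteins often promoting the use of an exon. The label of neuronal RNA-binding proteins therefore fits only some of the genes by their known range. Counts were made per gene, so exon use itself was not measured.

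The libraries held 15392006 to 18723390 counts. Defining markers of neurons (Snap25, 227 to 368 RPKM), oligodendrocytes (Mbp, 264 to 460), astrocytes (Slc1a2, 213 to 349), microglia (Cx3cr1, 14.9 to 17.4), endothelium (Cldn5, 9.03 to 29.7) and choroid plexus (Ttr, 328 to 510) were present in every library. RPKM is a read count scaled by transcript length in kilobases and by the library total. The summed level of 8 neuronal markers varied little, from 1068 RPKM in mouse 11 to 1169 in mouse 7. Summed markers of excitatory neurons ranged from 615 RPKM in mouse 7 to 1023 in mouse 11, those of endothelium from 53.6 in mouse 7 to 91.7 in mouse 11, those of astrocytes from 408 in mouse 11 to 569 in mouse 8, and those of cerebellar granule cells from 13.0 in mouse 9 to 32.8 in mouse 10. No marker of the 10 lists was at 0 in all libraries. In whole tissue, fewer cells of a type and less RNA per cell cannot be told apart. The part of such differences in the results below was not tested. The removal of trends with GC content and length, described further on, used no marker.

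Of the 59 genes, 58 had a mean count of at least 10, and their mean counts ran from 99.4 to 9949. The exception was Mbnl3. Together the genes took 0.889% ± 0.0207 of all counts (SD, n = 5, as throughout). A mean of at least 10 RPKM was reached by 42 genes. The median gene of the 58 stood at 20.8 RPKM, against 5.85 RPKM for the 14249 protein-coding genes that reached the same count, and 50 of the 58 lay above that median. The genes also had a median of 8.5 annotated transcripts, against 5 for those protein-coding genes.

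**Figure D1:**
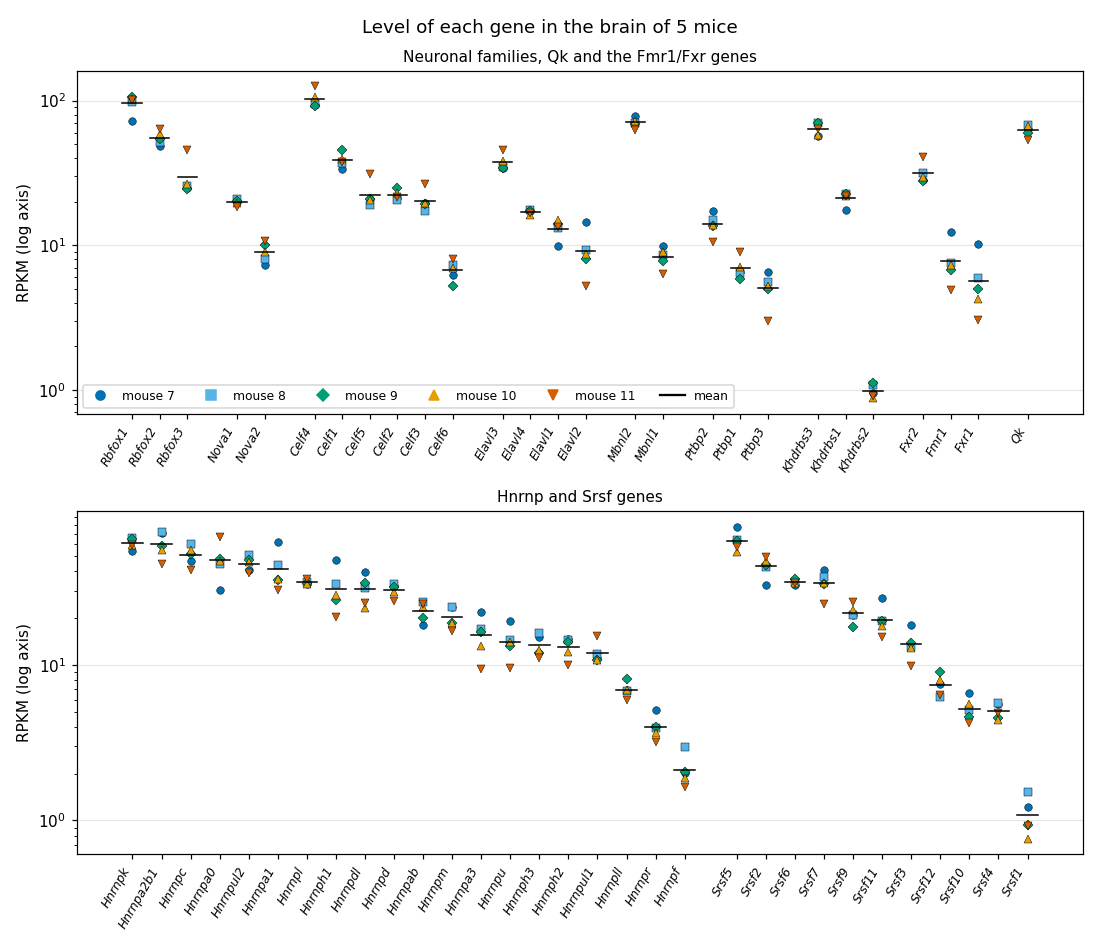
Level of 58 genes in RPKM (log axis) in each of the 5 mice, ordered by mean within each family; points are mice and black lines are means, and Mbnl3 is left out because it had counts in 1 library only. Celf4 and Rbfox1 stand highest at 102 and 96.2 RPKM, Khdrbs2 and Srsf1 lowest near 1 RPKM, and the points of mouse 7 and mouse 11 lie at opposite ends for many genes.

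The Rbfox proteins bind GCAUG elements beside regulated exons; Rbfox3 is the NeuN antigen used to stain neuronal nuclei. Rbfox1 had 72.8, 97.7, 106, 103 and 101.4 RPKM in mice 7 to 11, Rbfox2 had 48.5, 51.4, 54.6, 59.0 and 63.3, and Rbfox3 had 25.1, 25.8, 24.6, 26.7 and 45.4. The order Rbfox1, Rbfox2, Rbfox3 held in all 5 mice and the ranges of the genes did not overlap. Mouse 7 was low for Rbfox1 and mouse 11 was high for Rbfox3, each apart from the other 4 mice. Rbfox1 made up 53.1% ± 3.91 of the summed level of the family, Rbfox2 30.7% ± 1.55 and Rbfox3 16.2% ± 3.35. On the log2(RPKM + 1) scale, Rbfox1 exceeded Rbfox2 by 0.78 ± 0.16 and Rbfox2 exceeded Rbfox3 by 0.92 ± 0.27.

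Such comparisons were made for all 37 pairs of paralogs in 8 families, as the log2 ratio of RPKM + 1 within each mouse. A two-sided exact permutation test that flips the sign of each mouse's ratio cannot give p below 0.0625 with 5 mice, so no pair can pass 0.05. That smallest value (0.068 after Benjamini-Hochberg adjustment over the 37 pairs) was reached by 34 pairs, those in which 1 gene was higher in 5 of 5 mice. Levels of the 2 genes overlapped between mice in 6 pairs, 5 of them among the 19 pairs of neighbours in level. The pairs outside the 34 were Celf5 and Celf2, Celf2 and Celf3, and Elavl1 and Elavl2.

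The Celf proteins regulate splicing and mRNA decay; Celf1 and Celf2 are made in many tissues and Celf3 to Celf6 mainly in the nervous system. With the lengths that the authors' RPKM imply, Celf4 was the highest of all 59 genes, with 92.5, 95.2, 92.1, 107 and 125 RPKM in mice 7 to 11, rank 298 among the 21697 protein-coding genes of the table. With the longer exon length of GENCODE M21 its mean is 47.7 RPKM and it ranks 6 among the 59, and it then exceeded Celf1 in 4 of 5 mice, with 42.9 against 45.8 RPKM in mouse 9. Celf1 had 33.9 to 45.8 RPKM, highest in mouse 9. Celf5, Celf2 and Celf3 followed closely at 22.4 ± 4.80, 22.3 ± 1.69 and 20.4 ± 3.56 RPKM, and the 3 genes overlapped. Celf5 exceeded Celf2 in 1 of 5 mice, mouse 11 (exact permutation p = 0.938, adjusted 0.938), and Celf2 exceeded Celf3 in 4 of 5 (exact permutation p = 0.313, adjusted 0.321). Celf6 was lowest at 6.75 ± 1.08 RPKM, well below Celf3. Mouse 11 stood above the rest for both Celf3 (26.5 RPKM, the others 17.1 to 19.6) and Celf5 (30.9 RPKM, the others 18.9 to 20.9).

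Nova1 and Nova2 regulate splicing of synaptic transcripts in neurons. Nova1 had 19.99, 20.9, 20.4, 19.7 and 18.5 RPKM in mice 7 to 11 and Nova2 had 7.27, 8.03, 10.004, 8.99 and 10.7. Nova1 was higher in every mouse, by 1.73-fold in mouse 11 to 2.75-fold in mouse 7. Its values differed by a factor of 1.13 at most, which placed it, with Elavl4, among the members that varied least. Nova2 was lowest in mouse 7 and highest in mouse 11.

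The Elavl proteins, also called Hu proteins, bind AU-rich elements and stabilise mRNA; Elavl1 (HuR) is made in all cells and Elavl2, Elavl3 and Elavl4 mainly in neurons. Elavl3 led the family with 33.99, 34.7, 34.5, 38.2 and 45.8 RPKM in mice 7 to 11, or 48.7% ± 4.55 of its summed level. The mean of Elavl3, 37.4 RPKM, becomes 27.3 RPKM with the M21 exon length. Elavl4 was nearly constant, with 17.4, 17.6, 17.3, 16.2 and 16.7 RPKM. Elavl1 had 9.84, 13.2, 13.98, 14.9 and 13.4 RPKM, lowest in mouse 7. Elavl2 had 14.4, 9.23, 8.05, 8.68 and 5.25 RPKM, highest in mouse 7 and lowest in mouse 11, so it lay above Elavl1 in mouse 7 and below it in the other 4 mice (exact permutation p = 0.188, adjusted 0.198). Elavl3 exceeded Elavl2 by 2.36-fold in mouse 7 and 8.72-fold in mouse 11.

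Elavl2 and Elavl3 encode closely related proteins in coding sequences of different base composition. The differences between mice described further on moved with GC content across genes, and the pair was chosen for that reason, with these values known. GC content did not set the size of the difference gene by gene. Over the 21 members under 43% GC, log2 differences, mouse 11 minus mouse 7, ran from -1.71 (Fxr1) to -0.01 (Elavl4, 39.0% GC). In this family they were also -1.41 for Elavl2, 0.47 for Elavl3 and 0.49 for Elavl1 (44.0% GC). The part of base composition in these differences was not tested. Over all annotated transcripts Elavl2 has 41.1% GC and Elavl3 54.4%, and over the longest coding sequence 47.4% and 58.5%. The windows below are the 30 codons, lying in 1 exon of each gene, with the most codons of the same meaning. All 30 codons have the same meaning, 16 bases differ, and 13 of these are G or C in Elavl3 only. Capitals mark the bases that differ, and both run 5′ to 3′ on the minus strand (GRCm38, sequences from GENCODE M21). Elavl2 (ENSMUSG00000008489) spans chr4:91250763-91400785 and Elavl3 (ENSMUSG00000003410) chr9:22015005-22052023. The Elavl2 window is chr4:91253294-91253383 in exon 8, at 46.7% GC, and the Elavl3 window is chr9:22018557-22018646 in exon 7, at 58.9% GC.
Elavl2: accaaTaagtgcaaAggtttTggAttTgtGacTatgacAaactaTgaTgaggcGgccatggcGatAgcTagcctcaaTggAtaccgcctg
Elavl3: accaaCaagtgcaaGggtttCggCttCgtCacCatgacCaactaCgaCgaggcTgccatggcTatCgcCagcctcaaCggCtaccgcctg

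Ptbp proteins bind pyrimidine-rich tracts and mostly repress exons; Ptbp1 is made by glia and other dividing or non-neuronal cells, Ptbp2 mainly by neurons, and Ptbp3 mainly in blood-forming cells. Ptbp2 had 17.1, 14.9, 13.6, 13.7 and 10.5 RPKM in mice 7 to 11, Ptbp1 had 6.55, 6.48, 5.87, 7.03 and 9.05, and Ptbp3 had 6.54, 5.58, 5.02, 5.27 and 3.01. Ptbp2 was highest in each mouse. The gap was smallest in mouse 11: Ptbp1 held 21.7% of the summed level in mouse 7 and 40.0% in mouse 11, with 24.0% to 27.0% in the others. Ptbp1 and Ptbp3 were level in mouse 7 (ratio 1.002) and stood at a ratio of 3.003 in mouse 11. Of the longest coding transcript of Ptbp1, 21.5% is shared with genes at its own locus and 28.1% has a copy elsewhere at 95% identity or more, so its level is uncertain.

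The same contrast in base composition separates Ptbp2 (40.4% GC over its transcripts) from Ptbp1 (55.3%). Of 30 aligned codons 29 have the same meaning, 20 bases differ, and 14 are G or C in Ptbp1 only. Ptbp2 (ENSMUSG00000028134) spans chr3:119718742-119784466 and Ptbp1 (ENSMUSG00000006498) chr10:79854427-79864771, in GRCm38 as before. The Ptbp2 window is chr3:119720794-119720883 in exon 12 on the minus strand, at 44.4% GC, and the Ptbp1 window is chr10:79862775-79862864 in exon 12 on the plus strand, at 57.8% GC; capitals mark differing bases.
Ptbp2: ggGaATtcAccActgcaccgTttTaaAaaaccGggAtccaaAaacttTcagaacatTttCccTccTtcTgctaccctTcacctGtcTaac
Ptbp1: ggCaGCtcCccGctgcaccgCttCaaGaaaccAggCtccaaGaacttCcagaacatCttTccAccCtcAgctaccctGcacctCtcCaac

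Fmr1 encodes FMRP, the translational regulator lost in fragile X syndrome, and Fxr1 and Fxr2 encode its paralogs. Fxr2 had 28.2, 31.7, 28.0, 29.7 and 40.5 RPKM in mice 7 to 11, Fmr1 had 12.3, 7.4997, 6.70, 7.30 and 4.87, and Fxr1 had 10.3, 5.95, 5.01, 4.25 and 3.04. Fxr2 was the most abundant in every mouse, and Fmr1 exceeded Fxr1 in every mouse although their ranges overlapped. Mouse 7 had the most Fmr1 and Fxr1, and mouse 11 had the least of both and the most Fxr2. Fxr2 thus held 55.5% of the summed level in mouse 7, 70.2% to 72.02% in mice 8 to 10 and 83.7% in mouse 11. The ratio of Fxr2 to Fxr1 went from 2.75 in mouse 7 to 13.3 in mouse 11, and that of Fxr2 to Fmr1 from 2.29 to 8.32.

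Fmr1 (38.6% GC) and Fxr1 (41.1%) are poor in GC and Fxr2 (55.5%) is rich. In the window of Fxr1 and Fxr2 shown, 29 of 30 codons have the same meaning, 19 bases differ, and 15 are G or C in Fxr2 only. Fxr1 (ENSMUSG00000027680) spans chr3:34019943-34070322 and Fxr2 (ENSMUSG00000018765) chr11:69632990-69653297 in the same build. Both windows lie in exon 8 on the plus strand, that of Fxr1 at chr3:34049195-34049284 with 48.9% GC and that of Fxr2 at chr11:69648847-69648936 with 62.2% GC; capitals mark differing bases.
Fxr1: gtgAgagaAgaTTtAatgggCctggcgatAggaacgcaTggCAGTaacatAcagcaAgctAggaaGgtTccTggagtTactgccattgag
Fxr2: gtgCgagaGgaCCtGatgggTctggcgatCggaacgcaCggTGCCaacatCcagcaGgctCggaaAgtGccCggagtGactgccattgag

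**Figure D2:**
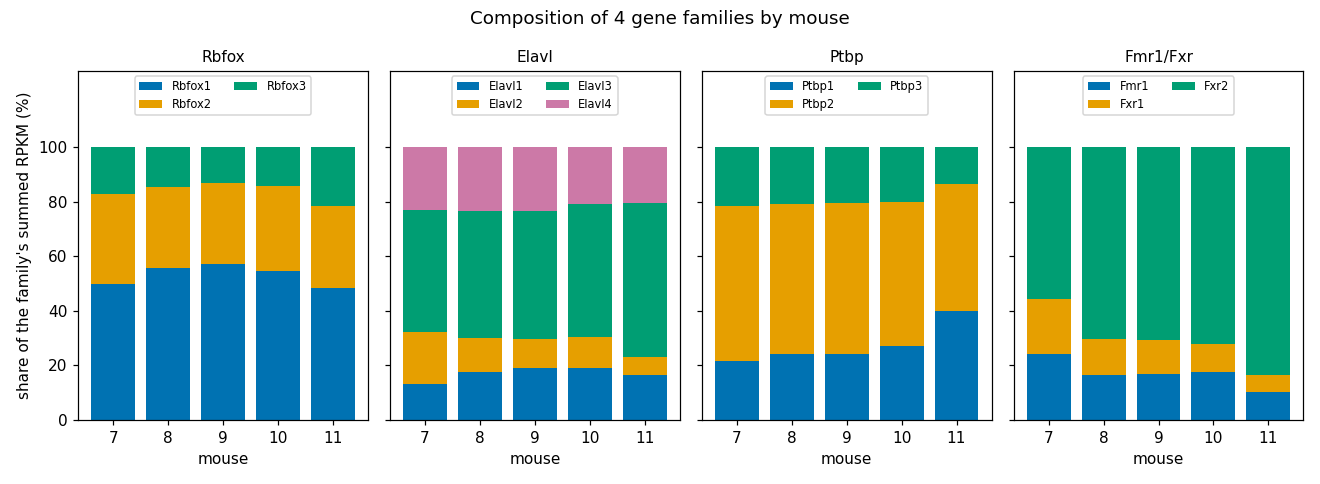
Share of each gene in the summed RPKM of its family (%), stacked by mouse, for the Rbfox, Elavl, Ptbp and Fmr1/Fxr families. The share of Fxr2 was 55.5% in mouse 7 and 83.7% in mouse 11, that of Elavl2 19.1% and 6.47%, and that of Ptbp1 21.7% and 40.0%.

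The Mbnl proteins oppose Celf1 at many exons and are sequestered by repeat RNA in myotonic dystrophy. Mbnl2 had 78.9, 70.3, 68.9, 71.98 and 63.1 RPKM in mice 7 to 11 and took 89.5% ± 0.842 of the summed level; its mean of 70.6 RPKM becomes 26.8 RPKM with the M21 exon length. Mbnl1 had 6.36 to 9.86 RPKM and was lower than Mbnl2 in 5 of 5 mice at either length. Mbnl3, known as an inhibitor of muscle differentiation, had 3 counts in mouse 8 and 0 in the others, so that in those libraries up to 3 counts could have been missed, or 0.0183 to 0.0221 RPKM. These limits cover counting error only.

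The Khdrbs genes encode Sam68 (Khdrbs1), made widely, and its neuronal relatives SLM1 (Khdrbs2) and SLM2 (Khdrbs3), which control neurexin splicing. Khdrbs3 had 56.7, 69.5, 69.6, 58.2 and 64.1 RPKM in mice 7 to 11, a mean of 63.6 RPKM that becomes 32.8 RPKM with the M21 exon length. Khdrbs1 was lowest in mouse 7, at 17.7 RPKM; elsewhere it had 21.8 to 22.7. Khdrbs2 had 0.878 to 1.12 RPKM. The 3 ranges did not overlap, and Khdrbs3 exceeded Khdrbs2 by between 59.3-fold and 70.1-fold. Qk, which encodes the quaking proteins that govern myelin mRNAs in oligodendrocytes and are also made by astrocytes, had 63.3, 68.0, 60.002, 66.3 and 53.5 RPKM and the largest mean count of the 59 genes. The mean of Qk, 62.2 RPKM, becomes 43.2 RPKM with the M21 exon length. Qk was lowest in mouse 11 and highest in mouse 8, as were summed astrocyte markers (408 and 569 RPKM). Summed oligodendrocyte markers were lowest in mouse 9 (628 RPKM) and highest in mouse 7 (875 RPKM). The part of either in the level of Qk was not tested.

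The 20 Hnrnp genes package nascent RNA and influence splicing, export and decay. Their means spanned 2.12 to 60.8 RPKM. Hnrnpk had 54.5 to 66.01 RPKM and Hnrnpa2b1 had 71.3, 71.8, 58.3, 54.8 and 44.8 RPKM in mice 7 to 11, lowest in mouse 11. Hnrnpc had 41.1 to 60.3 RPKM, also lowest in mouse 11, and a mean of 51.0 RPKM that becomes 33.8 RPKM with the M21 length. Hnrnpa0, an intronless gene rich in GC, had 30.5, 44.6, 48.1, 46.7 and 66.5 RPKM, lowest in mouse 7 and highest in mouse 11. Hnrnpul2 had 39.3 to 51.1 RPKM. Hnrnpa1, a well-studied repressor of exons, had 61.6, 44.0, 35.2, 35.7 and 30.3 RPKM, the reverse of Hnrnpa0; its mean of 41.4 RPKM becomes 25.2 RPKM with the M21 length. Hnrnph1 had 47.1, 33.3, 26.1, 28.2 and 20.3 RPKM and Hnrnpa3 had 21.9, 17.1, 16.2, 13.3 and 9.48, both highest in mouse 7 and lowest in mouse 11. Hnrnpul1 reached 15.4 RPKM in mouse 11 and lay between 10.8 and 11.7 elsewhere.

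At the lower end of the Hnrnp genes, Hnrnpll had 6.96 ± 0.762 RPKM, Hnrnpr 3.99 ± 0.731 and Hnrnpf 2.12 ± 0.510. Hnrnpf had a mean of only 104 counts. At 95% identity or more, 59.5% of its longest coding transcript has a copy in a gene at another locus, the largest share of the 59 genes. Each of 6 such genes covers at least 20% of it. The 4 of them found in the count table had 0.6 counts together on average, and the counting of reads with several matches is unknown here, which leaves this level uncertain.

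The 11 Srsf genes encode the SR proteins, which bind exonic enhancers and help define exons. Srsf5 had 77.5, 64.2, 63.1, 53.2 and 57.1 RPKM in mice 7 to 11 and Srsf2 had 32.9, 42.9, 43.8, 46.7 and 49.7; the highest mouse was mouse 7 for Srsf5 and mouse 11 for Srsf2. Srsf6 varied little, from 32.7 to 35.9 RPKM. Srsf7 had 40.9, 36.8, 33.2, 33.97 and 24.7 RPKM and a mean of 33.9 that becomes 21.8 with the M21 length. Srsf9 had 17.6 to 25.4 RPKM and Srsf11 had 15.1 to 26.9. Srsf3, with 18.2 RPKM in mouse 7 and 9.82 in mouse 11, averaged 13.6 RPKM, or 8.78 with the M21 length. Srsf10 had 5.25 ± 0.949 RPKM and Srsf4 5.04 ± 0.595, and they overlapped. Srsf1, a founding member of the family, had 1.23, 1.54, 0.939, 0.764 and 0.926 RPKM from a mean of 99.4 counts, below the median protein-coding gene. No stretch of its longest coding transcript had a copy at another locus by the same criterion, and 1.88% is shared with a gene at its own locus.

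Reads that cannot be told apart touch several of these levels. Exonic bases are shared with another annotated gene by 26 of the 59: Celf2, Celf3, Celf5, Elavl1, Elavl3, Fmr1, Fxr1, Hnrnpa3, Hnrnpab, Hnrnpd, Hnrnpf, Hnrnph3, Hnrnpk, Hnrnpl, Hnrnpm, Hnrnpr, Hnrnpu, Hnrnpul2, Mbnl2, Nova1, Nova2, Ptbp1, Ptbp3, Srsf1, Srsf2 and Srsf4. The share is largest for Srsf4 (43.02% of its exonic bases, with Gm12992), Nova2 (31.7%, with Gm26821, itself at 0 counts) and Hnrnpab (29.1%, with Phykpl). For 9 genes at least 1 gene at another locus copies 20% or more of the longest coding transcript, namely Hnrnpa3 (21 such genes), Hnrnpa1 (9), Hnrnpf (6), Hnrnpk (2), and Hnrnpc, Hnrnph2, Ptbp1, Srsf3 and Srsf5 (1 each). These levels are uncertain.

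To ask which genes differed between mice by more than is usual at their level, each gene's dispersion in edgeR's quasi-likelihood fit was compared with an F distribution fitted along expression, for the 16318 genes reaching that mean count of 10. No member passed an adjusted p of 0.05, and of all genes tested 0% did. The smallest adjusted p over all genes was 0.731 (edgeR quasi-likelihood). The F distribution was fitted to these same genes, so a share near 0.05 under that unadjusted threshold follows from the fit. The lack of calls therefore does not show that the mice differed little. Without adjustment, 2 of the 58 members lay under 0.05, against 4.99% of all genes tested, or 814. They were Fxr1 (edgeR quasi-likelihood, unadjusted p = 0.0188, adjusted 0.97) and Elavl2 (unadjusted p = 0.0406, adjusted 0.97). DESeq2 marked 49 genes as dispersion outliers (0.3%), none of them a member. The members' median SD of log2 CPM over the mice was 0.23, against 0.30 for all genes tested. CPM are counts scaled by the library total after adjustment by edgeR's TMM factor. All genes tested are expressed at lower levels than the members (median 293 counts against 1995). The highest value was at least 2 times the lowest for 9 members, and under 1.5 times for 31. These ratios were not counted over all genes tested, so whether the members differ from other genes here is unknown. By Dixon's criterion, which sets a value's gap to its neighbour against the whole range, 4 members had 1 mouse far above the other 4 (8.82% of all genes tested), namely Celf3, Celf5, Hnrnpul1 and Rbfox3, each in mouse 11. Rbfox1 and Khdrbs1, 2 of the 58, had 1 mouse far below (3.21% of all genes tested), in both cases mouse 7.

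**Figure D3:**
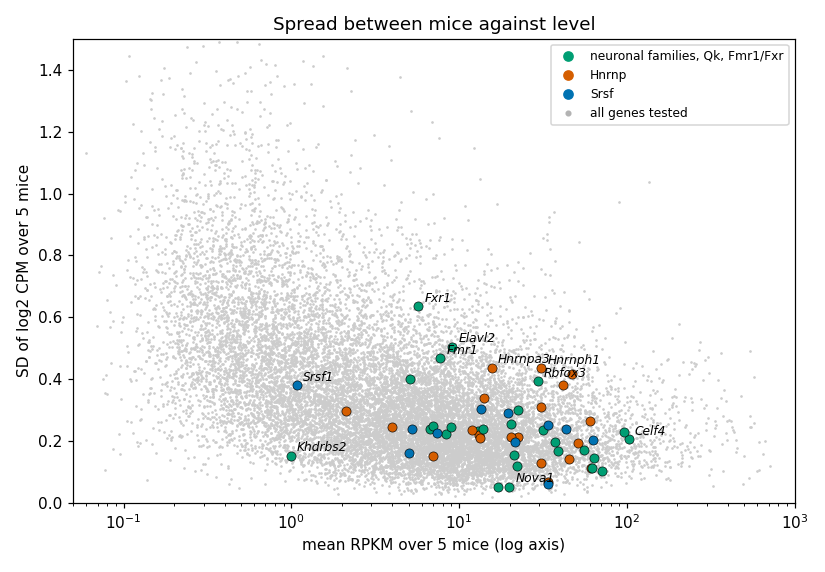
SD of log2 CPM over the 5 mice against mean RPKM (log axis), for 58 members (coloured by group) and the genes tested (grey, with some beyond the axes). Fxr1 (0.64), Elavl2 (0.50) and Fmr1 (0.47) have the largest SDs of the members and Nova1 (0.05) is near the bottom.

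The differences ran mainly between mouse 7 and mouse 11. Log2 CPM was highest in mouse 7 for 21 members (36.2%, against 26.3% of all genes tested) and lowest in mouse 11 for 27 (46.6%, against 34.2%). It was highest in mouse 11 for 16 (27.6%, against 35.8%) and lowest in mouse 7 for 15 (25.9%, against 23.3%). Mouse 7 exceeded mouse 11 by at least 0.5 in log2 CPM for 18 of 58 members, against 27.6% of all genes, and mouse 11 exceeded mouse 7 by as much for 9 members, against 23.6%. The pair of mice and this limit were chosen after the values were seen. The largest differences, mouse 11 minus mouse 7, were -1.71 for Fxr1, -1.41 for Elavl2 and -1.30 for Fmr1 on one side, and 1.17 for Hnrnpa0 and 0.90 for Rbfox3 on the other. By family type, the median deviation of a mouse from the mean of the 5 was 0.13 in mouse 7 and -0.23 in mouse 11 for the Hnrnp genes, 0.22 and -0.14 for the Srsf genes, and -0.08 and 0.05 for the other 27.

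These differences moved with the GC content of the transcripts. The 21 members under 43% GC had a median log2 deviation of 0.31 in mouse 7 and -0.35 in mouse 11, and all genes tested in that range had 0.42 and -0.48. The 17 members at or above 50% GC had -0.14 and 0.30, and all genes in that range -0.10 and 0.29. Across the 58 members, mouse 11 minus mouse 7 correlated with GC content with Pearson's r = 0.75 and Spearman's rho = 0.76, and across the 16264 genes with a GC value with r = 0.62 and rho = 0.67. These are descriptions across genes that share the same 2 libraries, not independent replicates. Several summed marker lists differed between the same mice, 7 and 11: excitatory neurons (615 and 1023 RPKM), inhibitory neurons (308 and 456), precursors of oligodendrocytes (63.8 and 100.1), endothelium (53.6 and 91.7) and astrocytes (502 and 408). The list of 8 neuronal markers, Rbfox3 among them, had 1169 and 1068 RPKM, with Snap25 lower and Rbfox3 higher in mouse 11. The part of these markers in the members' differences was not tested.

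**Figure D4:**
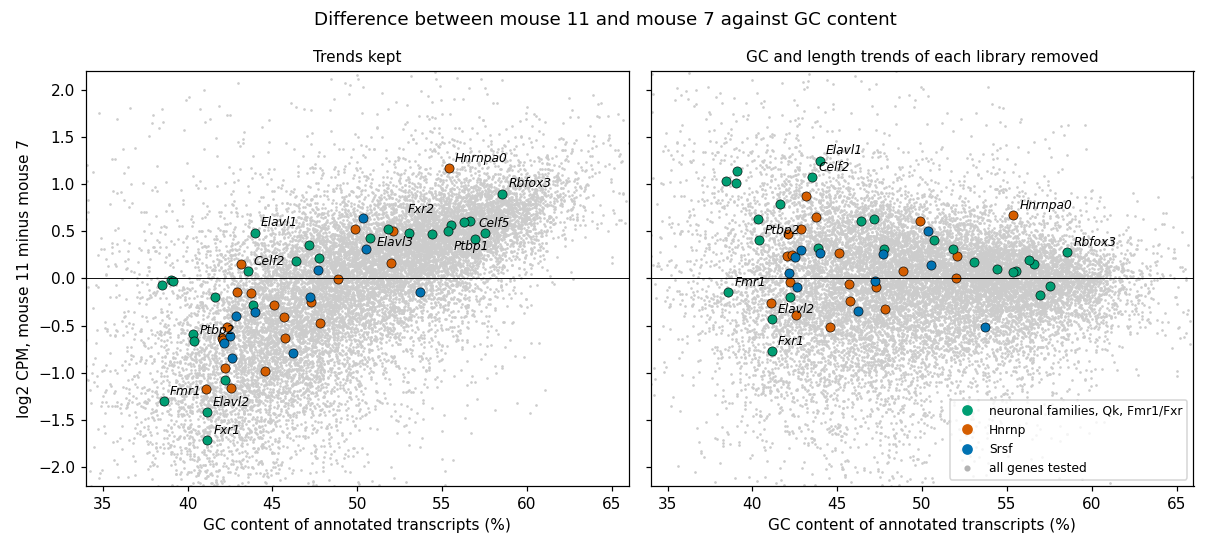
Log2 CPM in mouse 11 minus mouse 7 against GC content (%) of the annotated transcripts, for 58 members (coloured) and all genes tested (grey), as measured (left) and after removing each library's trends with GC content and length (right); some grey points lie beyond the axes. On the left Fxr1 (-1.71) and Rbfox3 (0.90) lie at opposite ends; on the right they are at -0.77 and 0.28, and Elavl1 (1.25) and Celf2 (1.07) are above 1.

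When the trend of each library with GC content and length was removed, differences between mice became smaller for most members, as for most genes tested. The difference between mouse 11 and mouse 7 became -0.77 for Fxr1, -0.43 for Elavl2, -0.14 for Fmr1, 0.08 for Fxr2, 0.07 for Ptbp1, 0.28 for Rbfox3 and 0.67 for Hnrnpa0. The share of Fxr2 then ranged from 66.3% to 73.5% over the mice, with an SD of 2.83 percentage points, and that of Ptbp1 from 25.4% to 29.5%. The SD of log2 CPM fell from 0.47 to 0.10 for Fmr1, from 0.25 to 0.03 for Srsf7 and from 0.20 to 0.06 for Elavl3. It became smaller for 41 of the 58 members, and for 11500 of the 16318 genes tested. The trends were fitted to these same values, so a fall for many genes follows in part from the fit. For the 20 members from 43 to 50% GC, the median SD rose from 0.19 to 0.23. For all genes in that range it fell from 0.28 to 0.24. The median SD after removal was 0.18 for the members, against 0.22 for all genes tested.

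Several members went the opposite way and differed more after removal than as measured. Nova1 (38.5% GC), Elavl4 (39.0%) and Khdrbs2 (39.1%) differed between mouse 11 and mouse 7 by -0.07, -0.01 and -0.02 as measured, and by 1.04, 1.011 and 1.14 after the trend was removed. Celf2 went from 0.07 to 1.07 and Elavl1 from 0.49 to 1.25. After removal, unadjusted p was below 0.05 for 7 members (Celf2, Elavl1, Elavl4, Hnrnpk, Hnrnpul1, Nova1 and Qk), against 5.57% of all genes, and none passed the adjusted threshold. Mouse 11 exceeded mouse 7 by at least 0.5 for 15 of 58 members, against 13.8% of all genes, and the reverse held for 3, against 18.9%. The lowest p-values after removal were those of Elavl1 (edgeR quasi-likelihood, unadjusted p = 0.00565, adjusted 0.716) and Celf2 (unadjusted p = 0.00791, adjusted 0.736). Neither Fxr1 nor Elavl2 was among the 7.

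A list of 56 further splicing and RNA-binding genes outside these families was set beside them, of which 53 had a mean count of at least 10. Their median level was 17.0 RPKM and their median SD of log2 CPM 0.24. No gene of the 53 passed the adjusted threshold, and 6 had unadjusted p below 0.05, against 4.99% of all genes tested. With the GC and length trends removed 5 did, against 5.57%. The highest were Snrpn, a core spliceosomal protein gene of neurons, at 221 ± 23.2 RPKM, Srrm2, a scaffold of nuclear speckles, at 62.3 ± 7.61, and Snrnp70 at 61.0 ± 9.84. The lowest were Igf2bp1, a fetal mRNA-binding protein, and Esrp2, an epithelial splicing factor, with means of 0.4 and 1.2 counts. Their differences between mouse 11 and mouse 7 also followed GC content across genes (Pearson's r = 0.76, Spearman's rho = 0.79, n = 53).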

How the data were processed

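Brain RNA of 5 mice was made into libraries with an Illumina mRNA kit, per the labels' protocols. A table of counts for each gene was deposited by the authors; CASAVA 1.7, STAR 2.4.1d, featureCounts 1.4.6-p4 and GRCm38 are named, without roles, per the submitters' processing notes. The annotation release, strand setting and treatment of reads with several matches are not given in the sources used here. The authors also deposited RPKM values for the same genes. Among 12729 genes with at least 30 counts and 0.3 RPKM in every library, lengths implied by the deposited RPKM were within 1% of each other for 0 genes with each library's own total and for all 12729 if successive genes use the totals of successive libraries. RPKM was therefore recomputed from counts, own totals and implied lengths. Implied lengths differ from GENCODE M21 exon lengths by over 1% for 17 of 58 members. Identifiers were matched to M21 (47310 of 47729 genes; unmatched genes held 0.0469% of counts).

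Between-mouse variation was tested in edgeR 4.0.16 (TMM scaling, quasi-likelihood fit of an intercept, mean count of at least 10) against limma 3.58.1's robust F distribution, with p adjusted by Benjamini-Hochberg and called under 0.05, and was tested on simulated data. The common biological coefficient of variation was 0.233. Log2 CPM used TMM scaling and a prior count of 1. Paralog pairs used log2(RPKM + 1) and an exact sign-flip test. Copies were sought with blastn 2.17.0 (95% identity, 50 bases or more) among M21 transcripts, with genes that overlap a member's own locus counted apart. GC content is that of all M21 transcripts of a gene; trends were fitted by loess on GC and then on length in each library. The limits of 43% and 50% GC were chosen after the data were examined. Every member of the 9 smaller groups was named, and of the Hnrnp and Srsf genes each the 6 highest, 3 lowest and 3 most variable, any with a mouse far from the other 4 (a gap over 0.71 of the range, Dixon's criterion), and those sharing exonic bases. Members and lists were chosen with earlier results of these data known. Alternatives were DESeq2 1.42.0 size factors or dispersions, library totals alone, other count limits, pseudocounts and prior counts, M21 lengths, deposited RPKM, removed trends and leaving out each mouse.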

Additional observations from a re-analysis of the deposited data

Results flagged for a closer look

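In 6 members the level of 1 mouse lay farther from the other 4 than Dixon's criterion for 5 values allows. Mouse 11 was high for Rbfox3 (45.4 RPKM), Celf5 (30.9 RPKM), Celf3 (26.5 RPKM) and Hnrnpul1 (15.4 RPKM). Mouse 7 was low for Rbfox1 (72.8 RPKM) and Khdrbs1 (17.7 RPKM). Chance flags about 1 in 20 groups, and of all genes tested 8.82% had 1 mouse far above and 3.21% had 1 mouse far below the others. The 4 genes high in mouse 11 have 49.9% to 58.6% GC, and Rbfox1 and Khdrbs1 have 51.8% and 47.2%. With GC and length trends removed, the SD of log2 CPM fell for Celf3, Celf5, Rbfox3 and Rbfox1. It rose from 0.24 to 0.29 for Hnrnpul1 and from 0.15 to 0.22 for Khdrbs1. The part of GC content in these flagged values was not tested.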

How the results depend on the processing

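No member was called variable between mice under any of the 11 alternatives. Over all genes, 0 calls became 230 with no filter on low counts and 49 as DESeq2 dispersion outliers. The mean log2 ratio of the 37 pairs kept its sign with a pseudocount of 0.1, M21 lengths and deposited RPKM, but Celf4/Celf1 fell from 5 to 4 of 5 mice with M21 lengths (exact permutation p = 0.125) and Celf5/Celf3 with deposited RPKM (exact permutation p = 0.188). When each mouse was left out, Celf5/Celf2 alone changed sign, its log2 ratio of RPKM + 1 lying between -0.134 and 0.0504. With M21 lengths the median level of all 59 genes, Mbnl3 included, was 19.6 RPKM, against 20.4 RPKM in the main analysis. The leading shares became 64.0% for Nova1, 30.1% for Celf4, 41.0% for Elavl3, 76.5% for Mbnl2 and 59.5% for Khdrbs3. The members' median deviation in mouse 11 was -0.11 and reversed to 0.13 once trends with GC content and length were removed, an alternative whose use on family shares was added after seeing the data. The count of members with unadjusted p under 0.05, 2 in the main analysis, was 4 with library totals alone, 8 with no filter, 1 without mouse 7 and 6 without mouse 11. No paired comparison of conditions was possible because the labels give 1 group only. Pairs of genes were compared within each mouse. Counting error is largest for Mbnl3 (0.6 counts on average), then Srsf1 (99.4) and Hnrnpf (104).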
